A study of Rattus norvegicus with 33 samples.

Results

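Hspa5, Hsp90b1, Calr, Pdia4, Dnajc3, Sdf2l1, Herpud1, Xbp1, Creld2 and Manf encode proteins that fold, watch over or dispose of proteins in the endoplasmic reticulum, or that are made when folding there falls behind. The 10 genes were chosen by symbol from the 18166 genes that have a probe set annotated to a single symbol. Each of the 10 had 1 such probe set, and all 10 were among the 10986 genes whose signal was high enough to be tested.

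Their levels were read from 33 whole-transcript arrays. The RNA came from mammary glands of female rats of the outbred Sprague-Dawley strain. All rats were vehicle controls that received olive oil by gavage, and the gland on both sides at the fifth, caudal position was taken whole. Pre-pubertal glands came from postnatal day 21 (n = 10), peri-pubertal glands from day 42 (n = 5) and pubertal glands from day 63 (n = 5). Lactating glands came from lactation day 28, which was postnatal day 146 (n = 3), and parous and nulliparous glands from day 181 (n = 5 each). One collection day is given per stage, so stage and collection day cannot be told apart, and rats were taken without regard to the estrous cycle. The series record counts 10 pre-pubertal animals and the sample notes 5 per stage, and each array was treated as 1 animal.

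The arrays carry 3 batch labels. Batch 1 held 6, 3 and 3 arrays of days 21, 42 and 63 and 3 each of the parous and nulliparous glands. Batch 2 held 4, 2 and 2 arrays of days 21, 42 and 63 and all 3 lactating glands. Batch 3 held 2 parous and 2 nulliparous glands, whose RNA was extracted with a Zymo kit that the labels give for fattier adult glands, whereas all other RNA was extracted with a Promega kit. Values are log2 RMA values, on which a step of 1 is a doubling. Differences are limma estimates ± SE from 1 model with stage and batch, and a gene rose or fell where the adjusted p was under 0.05. They can therefore depart from the plain difference of group means, above all where a stage has batch 3 arrays.

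The lumen of the endoplasmic reticulum is where secreted and membrane proteins, milk proteins among them, fold and receive their disulfide bonds and sugars. When unfolded protein builds up, the sensors IRE1, PERK and ATF6 start the unfolded protein response, in which IRE1 splices Xbp1 messenger RNA and the resulting factor, together with ATF6, raises chaperone and degradation genes. Xbp1 is known in mice for its part in secretory cells such as plasma cells and the lactating mammary epithelium. A whole-transcript array sums spliced and unspliced Xbp1, so splicing was not measured.

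The promoter sequences show what these genes share apart from their levels. RefSeq promoters of build GRCr8, from 250 bases before to 50 bases after the start, were matched for 9 of the 10 genes, all but Manf. The endoplasmic reticulum stress element (ERSE), searched on both strands as CCAAT, 9 bases of any kind and CCACG, was found in 6 of the 9, against 22 of 33469 promoters in the table (0.0657%). Herpud1 alone of the 9 held the related ERSE-II, searched as ATTGG, 1 base of any kind and CCACG, which 17 of 33469 promoters hold (0.0508%). Each match is printed 5′ to 3′ on the strand of its gene with up to 20 bases on either side, because these elements are known from stress-induced promoters, and the capitals mark its end boxes. On the opposite strand the ERSE boxes read CGTGG and ATTGG.
Hspa5, chr3:38452953-38453011, plus strand: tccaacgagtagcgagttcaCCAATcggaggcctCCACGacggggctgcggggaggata
Hsp90b1, upstream match, chr7:23012431-23012489, minus strand: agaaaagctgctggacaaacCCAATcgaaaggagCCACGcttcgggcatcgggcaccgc
Hsp90b1, downstream match, chr7:23012327-23012385, minus strand: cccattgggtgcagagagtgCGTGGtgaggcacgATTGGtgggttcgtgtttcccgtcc
Calr, chr19:40213117-40213173, plus strand: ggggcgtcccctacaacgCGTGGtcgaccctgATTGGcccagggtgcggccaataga
Dnajc3, chr15:102432514-102432572, plus strand: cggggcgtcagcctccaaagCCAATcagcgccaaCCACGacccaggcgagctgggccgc
Xbp1, chr14:84604538-84604596, plus strand: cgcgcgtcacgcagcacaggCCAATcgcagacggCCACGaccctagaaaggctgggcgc
Creld2, chr7:121789219-121789277, plus strand: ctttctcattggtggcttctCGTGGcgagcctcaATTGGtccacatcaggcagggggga
Herpud1, ERSE-II, chr19:10614801-10614851, minus strand: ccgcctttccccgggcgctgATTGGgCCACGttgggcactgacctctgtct
The first base of the match lay 43 bases before the start in Hspa5, 65 in Xbp1, 133 in Dnajc3, 145 in Creld2 and 232 in Calr. Hsp90b1 had matches at 176 and 72 bases, and Herpud1 its ERSE-II at 124 bases. Pdia4 and Sdf2l1 held neither element in this window. The unfolded protein response element TGACGTGG was found in 0 of the 9 promoters (0.595% of all) and the amino acid response element, TGATG, 1 base and AAT, also in 0 (1.09% of all). The boxes that make up the ERSE, and overlap it, are common: CCAAT stood in 9 of 9 promoters (37.5% of all) and CCACG in 9 of 9 (31.6% of all). A match is a string of letters and not evidence of binding. The ERSE and ERSE-II are known from promoters of genes of this kind, so their frequency here is a description and not a test.

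All 10 genes differed between the 6 stages in limma's F test, as did 65.9% of all genes tested (adjusted p 4.13e-07 for Xbp1 to 0.00291 for Calr). Hspa5, the BiP chaperone of the lumen, had batch-adjusted means of 12.28 at day 21, 12.82 at day 42, 12.30 at day 63, 13.11 in lactating, 12.75 in parous and 12.88 in nulliparous glands. It thus stood low at days 21 and 63, and high at day 42 and in adults. Herpud1, a membrane protein that helps pass proteins to degradation, had means of 8.83, 8.72, 8.66, 8.70, 9.18 and 9.26 in the same order, highest in the glands of day 181. Xbp1 had means of 11.98, 12.79, 12.81, 12.64, 12.86 and 12.77, lowest at day 21.

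**Figure D1:**
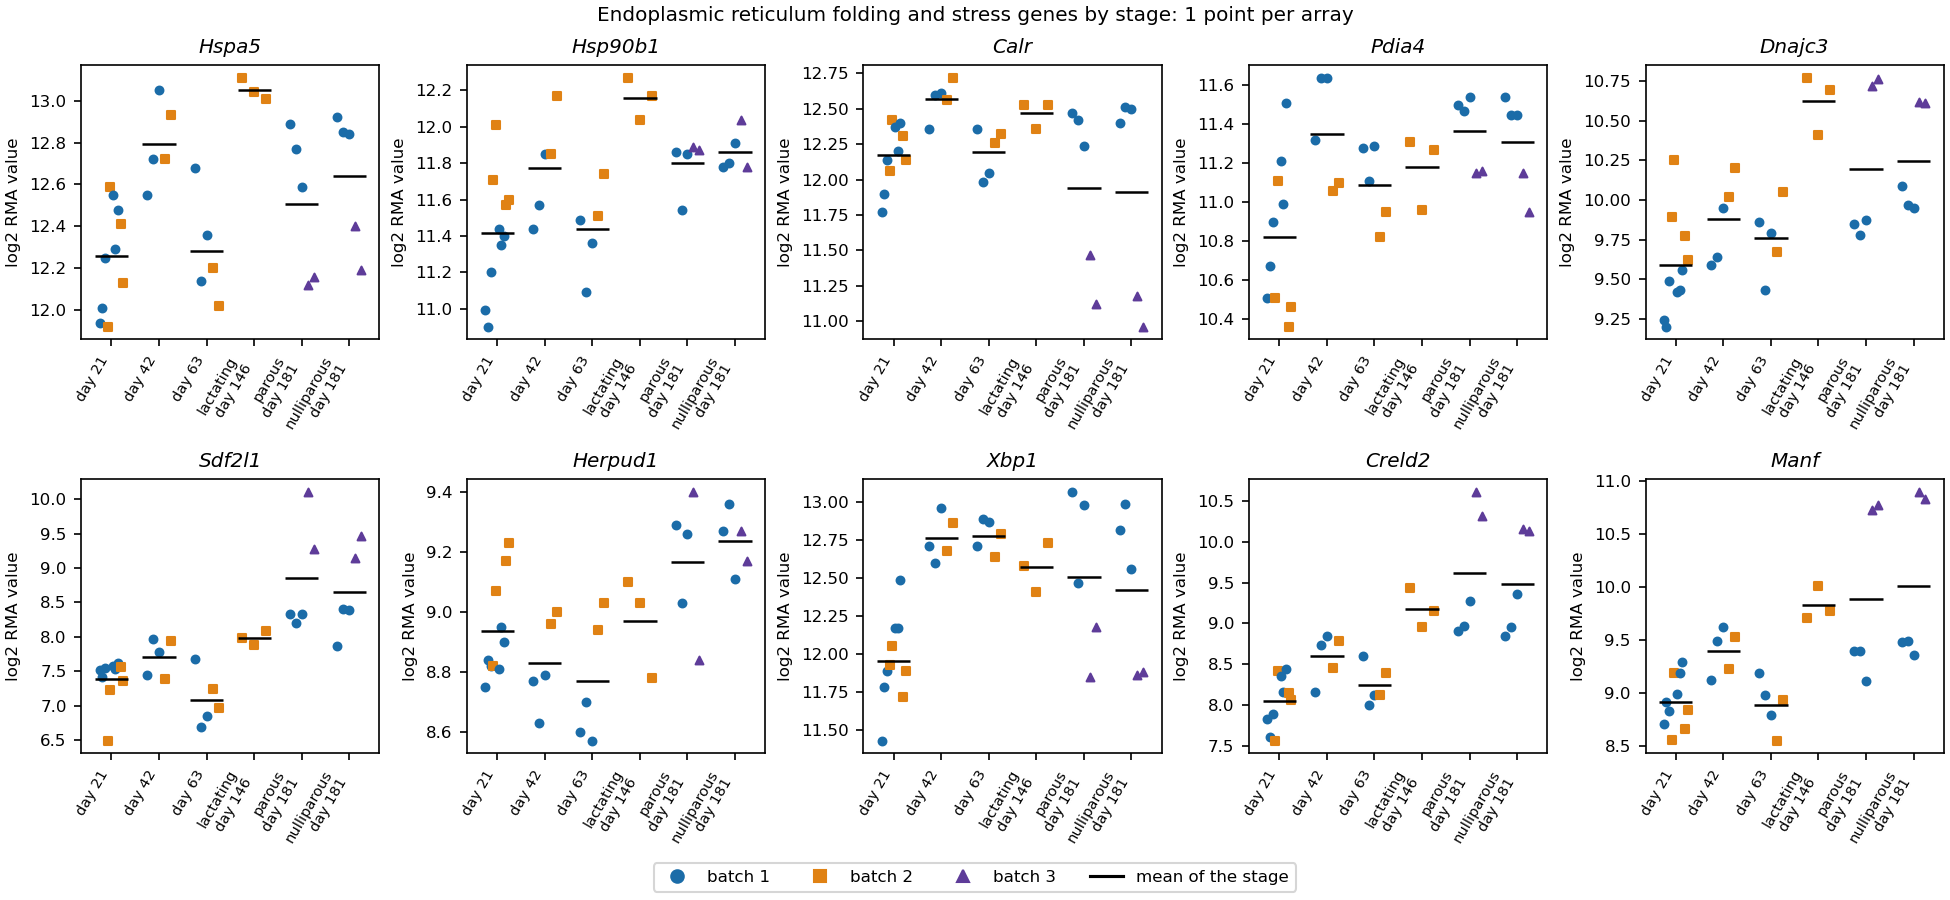
Log2 RMA value (vertical axis) of each of the 10 genes in every array, by stage (horizontal axis). Each point is 1 array, its colour and shape give the batch, and the black bar is the mean of the stage. Xbp1 is lowest at day 21, Hspa5 and Manf dip at day 63, and the 4 batch 3 arrays (triangles) lie far from the batch 1 arrays of the same stage for Calr, Xbp1, Creld2, Sdf2l1 and Manf.

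Day 42 glands were compared with day 21 glands, before and in the course of puberty. Of the 10 genes 8 rose and 0 fell, while 17.1% of all genes tested rose and 15.2% fell, and the median difference was 0.44 for the 10 genes against 0.00 for all genes. Xbp1, the transcription factor, rose most. It had values of 12.71, 12.60, 12.96, 12.68 and 12.86 in the day 42 glands, against a lowest of 11.43, a median of 11.91 and a highest of 12.49 in the 10 day 21 glands. Every day 42 gland was above every day 21 gland, and the log2 difference was 0.81 ± 0.12 (1.75-fold, adjusted p = 7.99e-06).

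The folding chaperones rose together at day 42. Hspa5 had 12.55, 12.72, 13.05, 12.72 and 12.93 in the day 42 glands, against a lowest of 11.92, a median of 12.27 and a highest of 12.59 in the day 21 glands. The lowest day 42 gland lay among the highest day 21 glands, and the other 4 lay above all of them. The difference was 0.54 ± 0.11 (1.45-fold, adjusted p = 0.000351). Calr, the calcium-binding lectin calreticulin, rose by 0.40 ± 0.09 and Hsp90b1, the HSP90 of the lumen (GRP94), by 0.36 ± 0.10. Pdia4, a disulfide isomerase, rose by 0.53 ± 0.12 and Dnajc3, a J protein that stimulates BiP and inhibits PERK, by 0.29 ± 0.10.

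Both genes of small stress-induced proteins that can be secreted also rose at day 42. Creld2, a protein with EGF-like repeats, averaged 8.60 ± 0.29 (SD, n = 5) in day 42 glands and 8.04 ± 0.32 (SD, n = 10) in day 21 glands, a difference of 0.56 ± 0.15. Manf, a neurotrophic factor that binds BiP, averaged 9.40 ± 0.22 and 8.92 ± 0.24 in the same order, a difference of 0.48 ± 0.11. Sdf2l1, which partners J proteins in the lumen, did not pass (0.32 ± 0.16, adjusted p = 0.139), and none of its 10 day 21 values was above the signal floor of 7.645, against 3 of 5 at day 42. Herpud1 did not pass either (-0.11 ± 0.08, adjusted p = 0.311). In batch 1 alone 9 of the 10 differences were positive (-0.11 to 0.77), and in batch 2 alone also 9 (-0.09 to 0.87), Herpud1 being the exception in each.

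Luminal epithelial markers moved in the same direction. All 15 of 15 markers rose at day 42, and the mean over the list lay between 9.67 and 10.28 in day 42 glands, against 6.98 to 9.70 in day 21 glands, where only Elf3 was below the floor in every gland. Milk secretion markers rose at 8 of 11 and fell at 2, with list means of 9.35 to 10.88 in day 42 and 7.67 to 8.82 in day 21 glands. Basal epithelial markers rose at 4 of 6 and fibroblast markers at 2 of 6. White adipocyte markers fell at 8 of 8, B cell markers at 5 of 5, T cell markers at 7 of 7 and endothelial markers at 3 of 4. In whole glands, fewer cells of a type and less RNA per cell cannot be told apart. With the luminal mean as a further term in the model, 0 of the 10 genes were called (lowest adjusted p = 0.327), 182 of all genes were, and the 10 differences lay between -0.10 and 0.53, with Xbp1 at 0.38 ± 0.16 and Hspa5 at 0.35 ± 0.17. With the muscle or plasma cell mean the same 8 genes were called, among 3332 and 4233 of all genes. The B cell mean also gave 8, among 2055 of all genes. Sdf2l1 was gained there (0.57 ± 0.17, adjusted p = 0.0147) and Dnajc3 lost (adjusted p = 0.157). Without a batch term 3 of the 8 calls were left (Xbp1, Hspa5 and Pdia4), and 1325 of all genes were called. In the full model 1883 of all genes rose and 1669 fell. Both stages hold batches 1 and 2 in the same proportion (6 and 4 arrays at day 21, 3 and 2 at day 42). The 10 differences therefore could not change without the batch term, and only their SEs were larger, as for Calr (0.40 ± 0.22) and Manf (0.48 ± 0.25). Within batch 2 only the call of Xbp1 was left, and 643 of all genes were called. Dnajc3 was lost without day 42 array 3 or array 5 (adjusted p up to 0.0927).

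**Figure D2:**
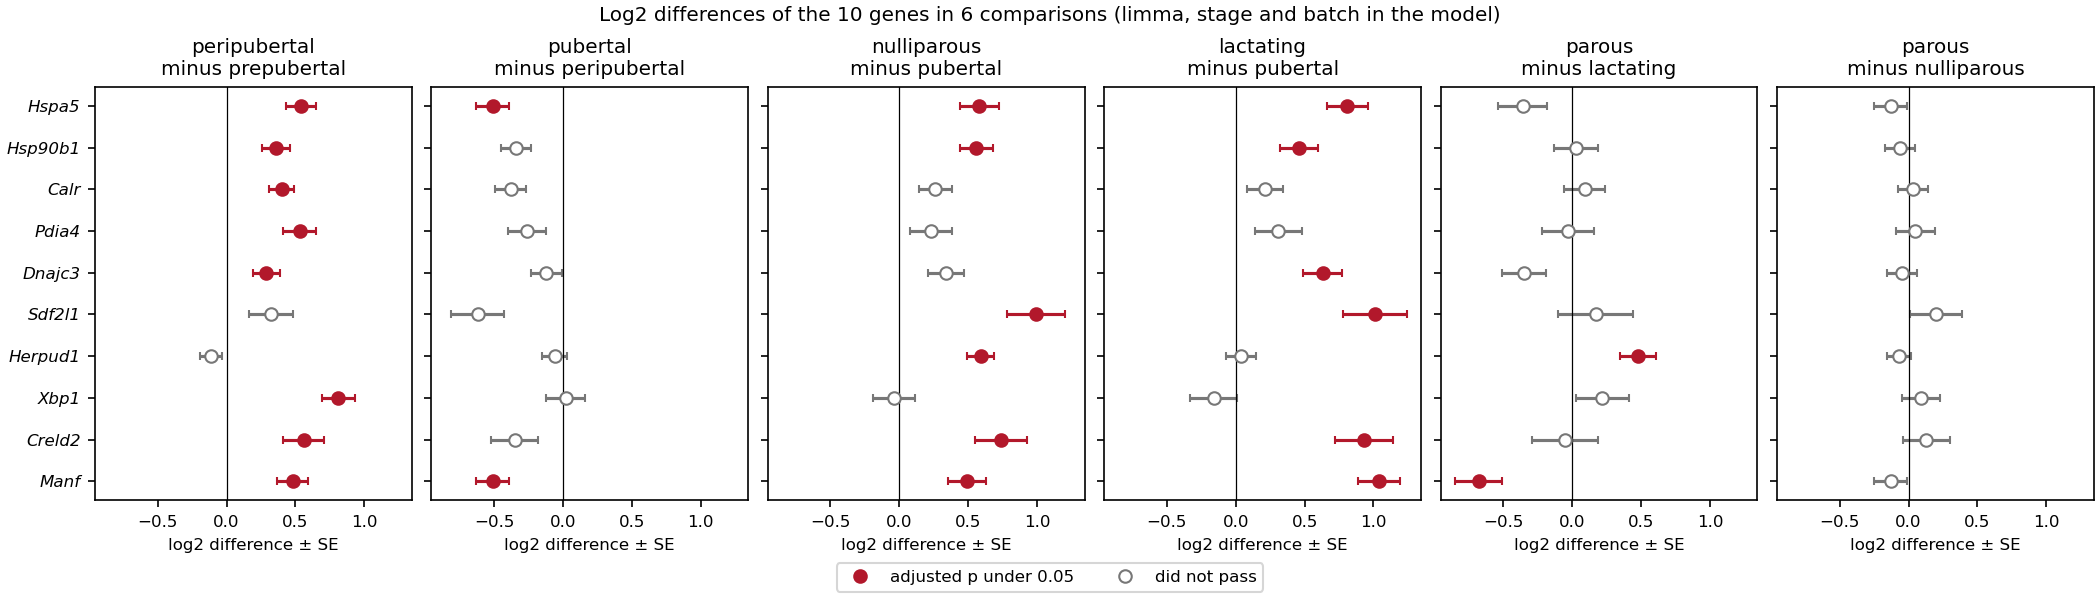
Log2 difference ± SE (horizontal axis) of each of the 10 genes (vertical axis) in the 6 comparisons, from the limma model with stage and batch. Filled points passed at an adjusted p under 0.05: 8 at day 42, 2 at day 63, 6 in nulliparous and 6 in lactating glands against day 63, 2 in parous against lactating glands and 0 in parous against nulliparous glands.

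Day 63 glands were compared with day 42 glands. Hspa5 and Manf fell, 0 genes rose, and 9 of the 10 differences were negative with a median of -0.34 against -0.01 for all genes. Of all genes tested, 0.501% fell and 0.719% rose. Hspa5 had 12.68, 12.14, 12.36, 12.20 and 12.02 in day 63 glands, against 12.55, 12.72, 13.05, 12.72 and 12.93 in day 42 glands. Of the day 63 glands 4 lay below all day 42 glands and 1 overlapped them, and the difference was -0.51 ± 0.12 (1.43-fold lower, adjusted p = 0.0315).

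Manf had 9.19, 8.98, 8.79, 8.55 and 8.93 in day 63 glands, against 9.12, 9.49, 9.62, 9.23 and 9.53 in day 42 glands. Again 1 day 63 gland overlapped the day 42 glands, and the difference was -0.51 ± 0.12 (adjusted p = 0.0295). Sdf2l1 did not pass (-0.62 ± 0.19, adjusted p = 0.0968), and since 1 of 5 day 63 values and 3 of 5 day 42 values were above the floor, the size of its difference is uncertain. Calr did not pass either, at -0.38 ± 0.11 (adjusted p = 0.0709), although all 5 of its day 63 values lay below all day 42 values. Xbp1 had 12.71, 12.89, 12.87, 12.64 and 12.79 in day 63 glands, against 12.71, 12.60, 12.96, 12.68 and 12.86 in day 42 glands. Those ranges overlapped throughout (0.02 ± 0.14, adjusted p = 0.970).

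The difference between means was negative at 9 of 10 genes within batch 1 (-0.66 to 0.06) and at 9 of 10 within batch 2 (-0.71 to 0.01). Luminal markers did not pass at any of 15, with list means of 9.85 to 10.30 at day 63 against 9.67 to 10.28 at day 42. Both calls are narrow. Hspa5 was lost in 8 of 10 fits that left out 1 array of these stages, all but those without array 1 of either stage. Manf was lost in 6 of 10, those without day 42 array 2, 3 or 5 or day 63 array 2, 3 or 4. With no batch term, within either batch or with the 2 stages fitted alone neither was called. Few genes of any kind were: 5 of all genes with no batch term, 1 within batch 1 and 0 within batch 2. Without batch 3 only Manf was called (adjusted p = 0.0487), among 120 of all genes. Both calls were kept with the luminal, muscle, B cell or plasma cell mean as a further term. Each of those fits called 3 of the 10 genes, among 219, 229, 323 and 296 of all genes in that order. The added call was Calr with the luminal (adjusted p = 0.0378) or muscle mean (adjusted p = 0.0317). With the B cell (adjusted p = 0.0258) or plasma cell mean (adjusted p = 0.0274) it was Sdf2l1.

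Adult virgin glands at day 181 were then compared with day 63 glands. Of the 10 genes 6 rose and 0 fell, against 1.88% and 2.39% of all genes tested, and the median difference was 0.52 for the 10 genes against -0.02 for all genes. Herpud1 rose here and in no earlier comparison. It had 9.27, 9.36, 9.11, 9.27 and 9.17 in nulliparous glands, against 8.60, 8.70, 8.57, 8.94 and 9.03 in day 63 glands. All nulliparous values lay above all day 63 values, and the difference was 0.59 ± 0.10 (1.51-fold, adjusted p = 0.000675).

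Sdf2l1 had 7.86, 8.41, 8.39, 9.14 and 9.46 in nulliparous glands, the last 2 of them batch 3, against 7.68, 6.69, 6.85, 7.24 and 6.97 in day 63 glands, of which 1 was above the floor. The groups did not overlap, and the difference was 0.99 ± 0.21 (adjusted p = 0.00649), a size that is uncertain because most day 63 values lay below the floor. Creld2 rose by 0.74 ± 0.19, Hspa5 by 0.58 ± 0.14, Hsp90b1 by 0.56 ± 0.12 and Manf by 0.49 ± 0.14. Dnajc3 (0.34 ± 0.13), Calr (0.26 ± 0.12) and Pdia4 (0.23 ± 0.15) did not pass, nor did Xbp1 (-0.04 ± 0.15, adjusted p = 0.935). Nulliparous glands were not tested against day 42 glands. Their batch-adjusted means were 12.88 against 12.82 at day 42 for Hspa5 and 9.44 against 9.46 for Manf. For the other risen genes they were 11.82 against 11.60 (Hsp90b1), 8.98 against 8.59 (Creld2), 8.16 against 7.78 (Sdf2l1) and 9.26 against 8.72 (Herpud1).

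Within batch 1, which holds 3 glands of each stage extracted with the same kit, 9 of 10 differences were positive and in those 9 the nulliparous glands all lay above the day 63 glands, as they did for 13.1% of all genes tested. Xbp1, at -0.03, was the exception. Fitted on batch 1 alone, 2 of the 6 calls were kept, Herpud1 (0.62 ± 0.09, adjusted p = 0.00284) and Sdf2l1 (1.15 ± 0.21, adjusted p = 0.0133). That fit called 250 of all genes, whereas in the full model 206 rose and 263 fell. With no batch term 4 of the 6 calls were kept, and 399 of all genes were called. Hspa5 (0.36 ± 0.17, adjusted p = 0.161) and Hsp90b1 (0.43 ± 0.16, adjusted p = 0.103) were lost, while Sdf2l1 stood at 1.57 ± 0.30, Creld2 at 1.24 ± 0.28 and Manf at 1.12 ± 0.29. Manf was lost without batch 3 (0.49, adjusted p = 0.0801). Without day 63 array 2 the calls numbered 3, Hspa5 being lost with Creld2 and Manf, and Creld2 was also lost without day 63 array 3 or nulliparous array 2 or 3, and Manf without day 63 array 3 or 4 or nulliparous array 1, 2 or 3. Luminal markers passed at 0 of 15 in this comparison, and plasma cell markers rose at 1 of 7. That 1 was Derl3, itself a degradation gene of the endoplasmic reticulum. The plasma cell list mean was 7.89 to 9.28 in nulliparous and 7.77 to 8.25 in day 63 glands. With the luminal mean as a further term all 6 calls were kept, and 547 of all genes were called. The plasma cell mean, which includes Derl3, also left all 6, with 669 of all genes.

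Late lactation was compared with the same day 63 glands, so the 2 comparisons share those arrays. Of the 10 genes 6 rose and 0 fell, while 23.8% of all genes rose and 16.9% fell, with medians of 0.55 for the 10 genes and 0.06 for all genes. Manf had 9.71, 10.01 and 9.77 in lactating glands, against 9.19, 8.98, 8.79, 8.55 and 8.93 in day 63 glands. No value overlapped, and the difference was 1.04 ± 0.15 (2.05-fold, adjusted p = 3.51e-06).

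Hspa5 had 13.11, 13.04 and 13.01 in lactating glands, against 12.68, 12.14, 12.36, 12.20 and 12.02 in day 63 glands. The lactating glands lay close together and above all day 63 glands (0.81 ± 0.15, 1.75-fold, adjusted p = 0.000121). Sdf2l1 rose by 1.01 ± 0.23, a size uncertain for the same day 63 values below the floor. Creld2 rose by 0.93 ± 0.21, Dnajc3 by 0.63 ± 0.14 and Hsp90b1 by 0.46 ± 0.14. All 6 kept their call when any 1 lactating or day 63 array was left out, and with batch 2 alone, which holds all lactating glands. With no batch term 4 of the 6 were kept, and Sdf2l1 (0.90 ± 0.34, adjusted p = 0.0696) and Manf (0.94 ± 0.33, adjusted p = 0.0507) were lost. Of all genes, 1780 were called with no batch term and 2383 with batch 2 alone. In the full model 2611 rose and 1861 fell.

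Xbp1 did not pass in lactation. It had 12.58, 12.41 and 12.73 in lactating glands, against 12.71, 12.89, 12.87, 12.64 and 12.79 in day 63 glands, overlapping ranges with a difference of -0.16 ± 0.17 (adjusted p = 0.462). Calr (0.21 ± 0.13), Pdia4 (0.31 ± 0.17) and Herpud1 (0.04 ± 0.11) did not pass either. Luminal markers rose at 7 of 15 and fell at 2, with list means of 10.22 to 10.67 in lactating and 9.85 to 10.30 in day 63 glands, and fibroblast markers fell at 6 of 6. White adipocyte markers fell at 6 of 8, with list means of 9.62 to 9.91 in lactating and 10.39 to 10.86 in day 63 glands. Plasma cell markers rose at 3 of 7, with list means of 8.13 to 8.56 in lactating and 7.77 to 8.25 in day 63 glands. Milk secretion markers rose at 5 of 11, with list means of 13.28 to 13.40 in lactating and 10.18 to 11.93 in day 63 glands. With the luminal mean as a further term the same 6 genes were called, among 4345 of all genes. Hspa5 stood at 0.74 ± 0.16 there and Manf at 0.95 ± 0.15. With the plasma cell mean Pdia4 was called as well (0.39 ± 0.16, adjusted p = 0.0482). No fit held the adipocyte, fibroblast or milk secretion mean.

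The calls in lactation changed with the virgin stage it was set against. Against day 42 glands 3 genes rose, Creld2 (0.57 ± 0.21), Manf (0.53 ± 0.15) and Dnajc3 (0.51 ± 0.14), while 24.6% of all genes rose and 18.5% fell. Hspa5 did not pass (0.29 ± 0.15, adjusted p = 0.123). Against nulliparous glands, which share no batch with the lactating glands, only Manf rose (0.55 ± 0.17, adjusted p = 0.0139) and Herpud1 fell (-0.55 ± 0.13, adjusted p = 0.00119), while 21.4% of all genes rose and 13.5% fell. The remaining 8 differences lay between -0.13, that of Xbp1, and 0.29, that of Dnajc3.

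After weaning, parous glands differed from lactating glands at 2 of the 10 genes. Of all genes tested 12.1% rose and 20.7% fell, and the median was 0.00 for the 10 genes and -0.06 for all genes. Herpud1 rose by 0.48 ± 0.13 (adjusted p = 0.00459). It had 9.29, 9.03, 9.26, 9.40 and 8.84 in parous glands, against 9.10, 9.03 and 8.78 in lactating glands, so the ranges overlapped. In the model, batch 2 was above batch 1 by 0.27 ± 0.06 for this gene, and without a batch term its difference was 0.19 ± 0.14 (adjusted p = 0.324).

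Manf fell by 0.68 ± 0.17 (1.60-fold, adjusted p = 0.00320). It had 9.40, 9.40 and 9.11 in the batch 1 parous glands and 10.73 and 10.77 in those of batch 3, against 9.71, 10.01 and 9.77 in lactating glands. The lactating values lay between the parous values of the 2 batches. Parous and lactating glands share no batch, so this comparison rests on the batch terms learnt from other stages, and without a batch term Manf stood at 0.05 ± 0.33 (adjusted p = 0.929). Hspa5 (-0.36 ± 0.18, adjusted p = 0.111) and Dnajc3 (-0.35 ± 0.16, adjusted p = 0.0939) did not pass. With arrays centred on their medians both passed, which made 4 calls. With no batch term Hspa5 was the only call among the 10 (-0.55 ± 0.19, adjusted p = 0.0327), and 3001 of all genes were called.

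Markers of several cell types moved in this comparison too. With the luminal mean as a further term Herpud1 (0.47 ± 0.14, adjusted p = 0.0121) and Manf (-0.56 ± 0.18, adjusted p = 0.0211) kept their calls. That fit called 3185 of all genes. Both calls were also kept with the muscle, B cell or plasma cell mean. No fit held the adipocyte, fibroblast or milk secretion mean, so the part of those cells was not tested. Luminal markers fell at 8 of 15 and rose at 1, with list means of 9.55 to 10.11 in parous and 10.22 to 10.67 in lactating glands, and milk secretion markers fell at 3 of 11. White adipocyte markers rose at 5 of 8, with list means of 10.03 to 10.72 in parous and 9.62 to 9.91 in lactating glands. Fibroblast markers rose at 5 of 6, with list means of 10.30 to 11.61 in parous and 9.96 to 10.44 in lactating glands. Plasma cell markers rose at 2 of 7 and fell at 1, with list means of 8.18 to 9.63 in parous and 8.13 to 8.56 in lactating glands. B cell markers rose at 2 of 5, T cell markers at 1 of 7 and macrophage markers at 2 of 6.

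Parous and nulliparous glands of the same age differed at 0 of the 10 genes in limma's test, with 0 at an unadjusted p under 0.05, and 0.0182% of all genes were called. The 10 differences lay between -0.13, for Hspa5 and Manf, and 0.20, for Sdf2l1, with SEs of 0.09 to 0.19. Herpud1 averaged 9.16 ± 0.23 in parous glands and 9.24 ± 0.10 in nulliparous glands (SD, n = 5 each), and Xbp1 12.51 ± 0.52 and 12.42 ± 0.52.

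The batch 3 glands of both adult stages were set beside the batch 1 glands of the same stage. Batch 3 is the Zymo kit, so kit, batch and the fatty tissue it was used for cannot be told apart. Manf had 10.73 and 10.77 in the parous glands of batch 3 against 9.40, 9.40 and 9.11 in those of batch 1, and 10.90 and 10.83 against 9.48, 9.49 and 9.36 in the nulliparous glands. The batches stood apart in each stage, by 1.45 and 1.42. In the model batch 3 was above batch 1 by 1.43 ± 0.12 for Manf, 1.26 ± 0.17 for Creld2, 1.24 ± 0.19 for Sdf2l1 and 0.76 ± 0.11 for Dnajc3.

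Other members ran the opposite way between the kits. Calr was lower in batch 3 by -1.24 ± 0.11, with 11.47 and 11.12 in parous glands of batch 3 against 12.47, 12.42 and 12.24 in those of batch 1. Xbp1 (-0.87 ± 0.14), Hspa5 (-0.59 ± 0.13) and Pdia4 (-0.39 ± 0.14) were lower as well. Hsp90b1 (0.10 ± 0.11) and Herpud1 (-0.05 ± 0.09) did not pass. The 8 batch differences that passed had adjusted p-values of at most 0.0117, and 8501 of the 10986 genes differed between these batches.

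**Figure D3:**
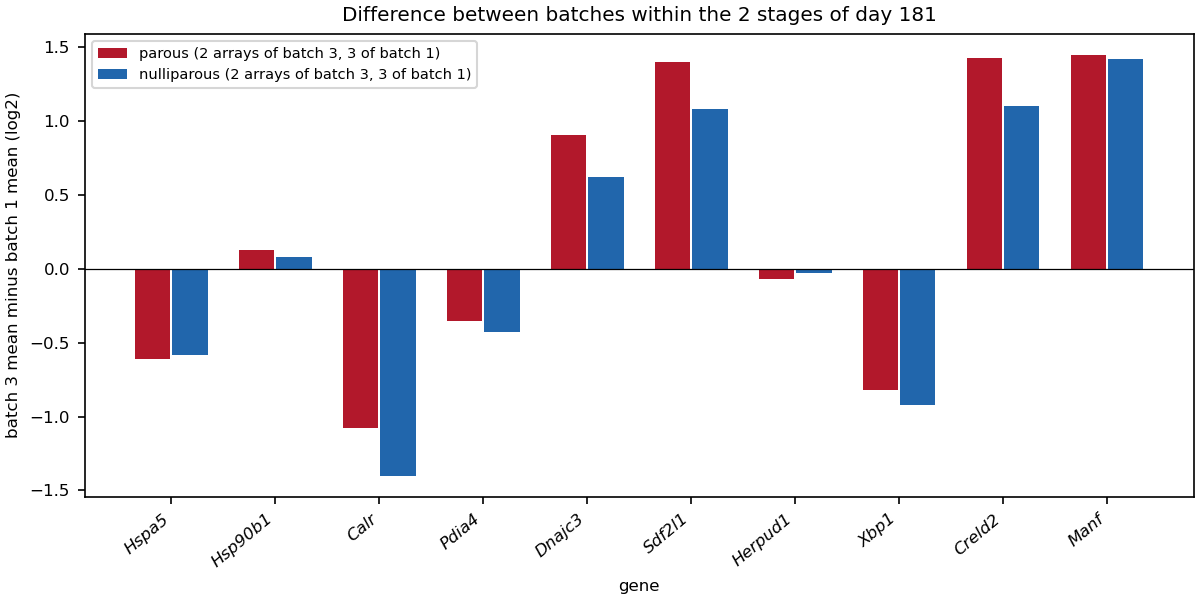
Mean of the 2 batch 3 arrays minus mean of the 3 batch 1 arrays (vertical axis, log2) for each of the 10 genes (horizontal axis), in parous glands (red) and nulliparous glands (blue) of day 181. The differences run from -1.40 for Calr in nulliparous glands to 1.45 for Manf in parous glands and have the same sign in both stages for every gene.

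The 10 genes varied together across arrays. Over the 33 arrays after batch adjustment, the 45 pairs had a median Pearson r of 0.72 (0.16 to 0.90), and after stage was also removed a median of 0.54 (-0.10 to 0.81). These are descriptions: genes of 1 array share its RNA and its mix of cells. Hsp90b1 and Creld2 followed the mean of the other 9 most closely (r = 0.94 each). Herpud1 followed it least (0.40, and 0.20 without stage), and Xbp1 less than the chaperones (0.66, and 0.52 without stage). Sdf2l1 had 0.76 with stage and 0.39 without.

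Outside the 10 genes, Hyou1 was most like their mean, with r = 0.923 over the 33 batch-adjusted arrays and 0.842 without stage. Hyou1 encodes ORP150, a large HSP70-like protein of the lumen. Fkbp4, a cytosolic partner of HSP90, came next (0.905 and 0.743). Kctd14 (0.844), Fkbp11 (0.831) and Phlda1 (0.830) followed in the batch-adjusted values, and Rpn1 (0.737), Pdia3 (0.719) and Lman1 (0.714) without stage. For scale, all other genes had a median r with that mean of -0.01, and 0.04 without stage, and percentiles 5 and 95 of the batch-adjusted r were -0.57 and 0.62.

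**Figure D4:**
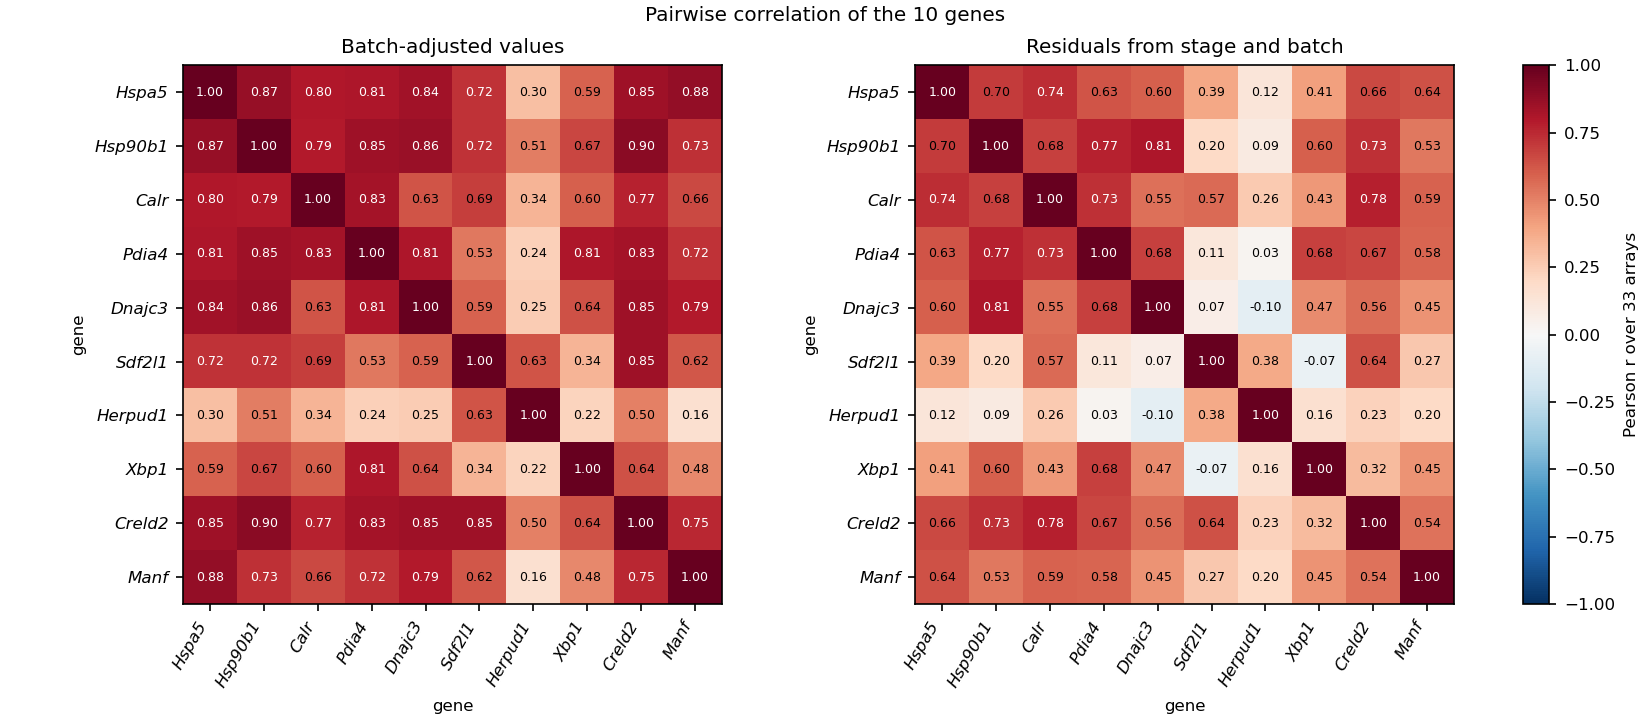
Pearson r over 33 arrays for each pair of the 10 genes (both axes), after batch adjustment (left) and after stage and batch were removed (right). Red is positive and blue negative. The row of Herpud1 is palest in both panels.

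A wider list of 144 genes of the secretory pathway, written by role from general knowledge, put these changes in context: 134 were matched and 128 tested. At day 42, 45 of 128 rose and 4 fell (median 0.19). At day 63, 0 rose and 2 fell, Hyou1 (-0.58 ± 0.13) and Gmppb, an enzyme of sugar donor synthesis (-0.61 ± 0.13). Gmppb averaged 7.23 at day 63, below the floor, so the size of its fall is uncertain. In nulliparous against day 63 glands 5 rose and 1 fell, in lactating against day 63 glands 48 rose and 11 fell, in parous against lactating glands 9 rose and 32 fell, and in parous against nulliparous glands 0 were called. The shares of all genes given above apply to each of these comparisons.

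The role groups moved unequally. At day 42, vesicle traffic genes rose at 12 of 21, among them Golgb1, the Golgi tether giantin (0.56 ± 0.08), translocation genes at 9 of 19, among them the channel subunit Sec61a1 (0.42 ± 0.09), and other chaperones at 8 of 17, among them Fkbp11 (0.91 ± 0.18) and Hyou1 (0.58 ± 0.12). Of the 19 retrotranslocation and degradation genes, to whose role Herpud1 belongs, 0 rose and 0 fell. Integrated stress response targets fell at 4 of 9 and rose at 0. Among them Ddit4, an mTORC1 inhibitor, stood at -1.69 ± 0.28 and Psat1, a serine synthesis enzyme, at -1.12 ± 0.21. Slc7a11, the cystine transporter, stood at -2.69 ± 0.54. That size is uncertain because its day 42 mean of 5.60 lay below the floor.

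In lactation the degradation genes rose at 12 of 19 and fell at 1. The ATPase gene Vcp rose by 0.60 ± 0.10, its cofactor gene Nploc4 by 0.76 ± 0.12 and Aup1 by 0.57 ± 0.10. The sensor gene Atf6 rose by 0.64 ± 0.10 and Atf4, the factor translated when PERK acts, by 0.61 ± 0.10. Integrated stress response targets rose at 2 of 9 and fell at 0, with Nupr1 at 1.79 ± 0.16 and Trib3 at 0.52 ± 0.16. The size for Trib3 is uncertain because its means of 6.65 in lactating and 6.16 in day 63 glands lay below the floor. Disulfide enzymes rose at 5 of 14, led by the sulfhydryl oxidase Qsox1 (2.05 ± 0.29) and the peroxiredoxin Prdx4 (1.67 ± 0.22). Among other chaperones 4 rose and 4 fell, with Serpinh1, the collagen chaperone, at -1.57 ± 0.19, beside the falls of all 6 fibroblast markers. The part of cell content in these values was not tested.

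In parous against lactating glands Nploc4 (-0.85 ± 0.14), Vcp (-0.61 ± 0.12), Prdx4 (-1.41 ± 0.26) and Qsox1 (-1.47 ± 0.33) fell, and Serpinh1 rose by 1.29 ± 0.22. Integrated stress response targets fell at 1 of 9 and rose at 0, with Nupr1 at -2.19 ± 0.19. In nulliparous against day 63 glands the genes that rose were Hyou1 (0.53 ± 0.15), the degradation ligase Syvn1 (0.52 ± 0.12), the signal peptidase subunit Spcs2 (0.30 ± 0.08), the coat gene Sec23b (0.52 ± 0.10) and Derl3. Derl3, a channel gene that is also in the plasma cell list, rose by 0.76 ± 0.21. That size is uncertain because its day 63 mean of 7.54 lay below the floor. Erlec1 fell by 0.47 ± 0.13. The plain nulliparous mean lay below the day 63 mean for Hyou1 (9.39 against 9.56) and Syvn1 (9.07 against 9.31). Their rises therefore depend on the batch terms. For Spcs2, Sec23b and Derl3 the plain nulliparous mean lay above the day 63 mean.

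**Figure D5:**
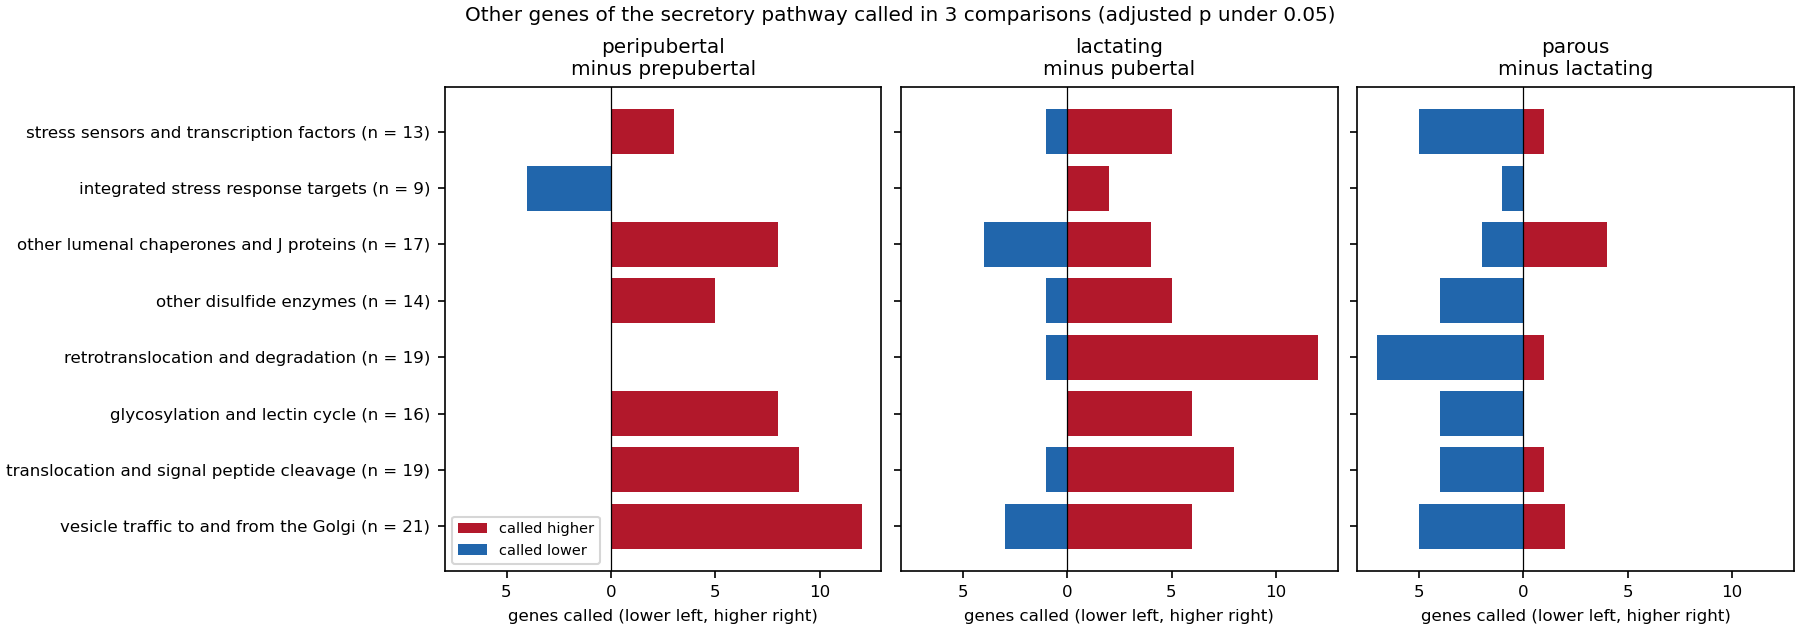
Number of genes called higher (red, right of 0) and lower (blue, left of 0) on the horizontal axis, by role in the secretory pathway (vertical axis, with the number tested), in 3 comparisons. The degradation group has 0 calls at day 42, 12 higher and 1 lower in lactation, and 1 higher and 7 lower in parous against lactating glands.

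Counterparts in the cytosol and mitochondria were measured for 6 of 9 genes listed. At day 42 Hsp90ab1 (0.25 ± 0.08), Hspa8 (0.12 ± 0.05) and Hsph1 (0.44 ± 0.17) rose and Hspa9, the mitochondrial HSP70, fell by 0.18 ± 0.07. Hsph1, a nucleotide exchange factor of HSP70, fell by 0.85 ± 0.19 at day 63 and rose by 1.37 ± 0.22 in nulliparous against day 63 glands. That is the order of signs seen for Hspa5 and Manf. In lactation Dnajb1 (0.82 ± 0.16), Hsph1 (0.87 ± 0.24) and Hspa8 (0.19 ± 0.07) rose.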

How the data were processed

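Total RNA was labelled with biotin and hybridised to 33 Affymetrix whole-transcript arrays, per the labels' protocols. The authors deposited 1 table of RMA log2 values for 36685 probe sets, from Affymetrix Expression Console per the submitters' processing notes. Versions and genome build: not given in the sources used here. Values lay between 2.405 and 14.228. RMA compresses low signals, and the table holds no detection calls, so what counts as undetected is unknown. Precision is limited by the number of arrays.

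The platform annotation gave 18511 probe sets 1 symbol, 575 several and 17599 none. A gene with several probe sets was read from the one with the highest mean. Genes above a log2 floor of 7.645 (the median of single-symbol probe sets) in 3 or more arrays were tested. One limma 3.58.1 model (R 4.3.3) with stage and batch was fitted to all 33 arrays (25 residual degrees of freedom, variance trend with intensity). Tests were two-sided, with Benjamini-Hochberg adjustment over 10986 genes and a threshold of 0.05. The script was tested on simulated data. No arrays held identical values. The labels do not say that arrays are separate animals beyond the counts given, so p-values measure the spread between arrays.

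Genes other than the 10 were named by rule: in each role the 3 of smallest p over stages and up to 3 called genes of smallest p per comparison, and the 5 most correlated genes with and without stage. The members, lists and tests were chosen with earlier results of these data known. The alternatives covered the batch term, the filter, the scaling, marker means as covariates, single batches, other comparators and each array left out. Figures were drawn with matplotlib 3.10.9.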

Additional observations from a re-analysis of the deposited data

Results flagged for a closer look

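Of 50 groups of 4 to 10 arrays examined for the 10 genes, 2 held 1 array far from the others, where chance gives about 1 in 20. Hsp90b1 was 11.54 in parous array 2, a batch 1 gland, and the nearest parous value was 11.85. Sdf2l1 was 6.49 in day 21 array 4, a batch 2 gland, and the nearest day 21 value was 7.22, both below the signal floor.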

How the results depend on the processing

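The 24 called differences were refitted under 644 alternatives: 561 kept direction and call, 80 kept direction but lost the call and 3 changed sign. Of 896 refits of differences that were not called, 16 passed, and in 56 the sign changed with neither fit passing (largest size 0.53). For day 42 against day 21 the count of 8 was 3 with no batch term, 1 with batch 2 only and 0 with the luminal marker mean as a covariate. For day 63 against day 42 the count of 2 was 0 with no batch term, with only the groups compared, with batch 1 only and with batch 2 only, 1 without batch 3, and 0 to 4 when 1 array was left out, 4 without day 42 array 1 or day 63 array 1. It was 3 with the luminal, muscle, B cell or plasma cell marker mean as a covariate. For nulliparous against day 63 glands the count of 6 was 4 with no batch term, 3 with only the groups compared, 2 with batch 1 only and 3 to 6 when 1 array was left out. For lactating glands the count of 6 was 4 with no batch term, 3 against day 42 and 2 against nulliparous glands, where Hsp90b1 stood at -0.094 and Herpud1 at -0.55. For parous against lactating glands the count of 2 was 1 with no batch term, that of Hspa5 at -0.55 in place of Herpud1 and Manf, 4 with arrays centred on their median and 0 with only the groups compared. Manf was 0.048 there both with no batch term and with only the groups compared. The cause was not tested in any of these, except that fits within 1 batch or 2 stages have fewer arrays. Days 21, 42 and 63 hold batches 1 and 2 in the same proportion. Dropping the batch term could therefore change only the SEs of differences among them, so their kept direction there was fixed by the design. Calls over all genes also changed with the fit, as given above for fits with no batch term or 1 batch. The B cell and plasma cell covariates were added after seeing the data. No paired analysis was possible because array numbers follow accession order and pair no samples.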
